A study of Sus scrofa with 12 samples.

Results

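ADAM and ADAMTS proteases were described from RNA sequencing of pig hearts, as 10 genes taken by name: ADAM8, ADAM10, ADAM12, ADAM17, ADAM19, ADAMTS1, ADAMTS2, ADAMTS4, ADAMTS5 and ADAMTS12. All 10 had an identifier among the 35682 genes counted, and all 10 passed the filter on low counts, which left 13844 genes. The data were 12 libraries, a border zone and a remote zone library from the mid level of the heart of each of 6 young female Yorkshire pigs, which are named by their animal numbers 1022, 1322, 1323, 1623, 1922 and 3622. All 6 had a balloon inflated in the left anterior descending coronary artery for 60 minutes and then released. From day 9 they were given 3 immunosuppressants, with daily doses of 20 mg for prednisolone, 500 mg for mycophenolate mofetil and 0.75 mg per kg for tacrolimus, and on day 14 either vascular organoids of human endothelial progenitor and smooth muscle cells or fibrin glue alone was placed on the heart. The labels do not give the treatment of each animal, so animals were pooled whatever their treatment, and the treatments were not compared. The border zone was the tissue next to the infarct and the remote zone was posterior wall of the same injured heart, so no uninjured or drug-free heart serves as a reference.

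Both families cut proteins outside the cell with a zinc ion held in their active site. ADAM proteins sit in the cell membrane and release the outer parts of neighbouring membrane proteins, such as growth factors, cytokines and adhesion molecules. ADAMTS proteins are secreted, bind to the matrix through thrombospondin-type repeats, and process procollagens or cut large proteoglycans such as versican and aggrecan. In a healing infarct, matrix is laid down and reshaped next to surviving muscle.

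The coding sequence of the active site is shown because it is a feature that all 10 members share. Each of the 10 genes coded this site once, read on the coding strand of the pig genome Sscrofa11.1 with the RefSeq gene models. The capitals mark the codons of the 3 histidines that hold the zinc ion and of the catalytic glutamate.
ADAM8: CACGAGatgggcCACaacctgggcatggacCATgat
ADAM19: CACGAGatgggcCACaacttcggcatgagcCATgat
ADAM12: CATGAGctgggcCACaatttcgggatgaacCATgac
ADAM17: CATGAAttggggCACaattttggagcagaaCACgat
ADAM10: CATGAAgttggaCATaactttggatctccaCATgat
ADAMTS1: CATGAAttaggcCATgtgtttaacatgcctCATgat
ADAMTS4: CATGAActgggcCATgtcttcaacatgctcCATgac
ADAMTS2: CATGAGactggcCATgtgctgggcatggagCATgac
ADAMTS5: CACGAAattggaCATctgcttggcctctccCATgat
ADAMTS12: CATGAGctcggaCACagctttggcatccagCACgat
Of the 36 bases, ADAM8 and ADAM19 shared 32 and ADAM12 and ADAM19 shared 30, while ADAM17 shared 18 with ADAMTS2 and 18 with ADAMTS4. ADAMTS1 and ADAMTS4 shared 29 bases, and in this pair alone the eighth codon was aac, whereas it was a glycine codon in the other 8 genes. An intron parted the site in all 5 ADAMTS genes and in ADAM10, and it lay within exon 11 in the other 4 ADAM genes. For ADAM12 this exon stretch is at chr14:135395251-135395286 on the minus strand, for ADAM8 at chr14:141227892-141227927 on the minus strand, for ADAM19 at chr16:65776260-65776295 on the plus strand and for ADAM17 at chr3:126835051-126835086 on the plus strand. ADAMTS1 and ADAMTS5 are neighbours on chromosome 13, both on the minus strand, with 67061 bp between them.

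Depth ran from 15130210 to 30526110 gene counts in the border zone libraries and from 20091415 to 31618680 in those of the remote zone. Levels are given as CPM, counts scaled to a common library size after TMM normalisation. As a check of the tissue, the 8 cardiomyocyte genes with an identifier had a summed level of 44466 to 80560 CPM in the remote zone, against 9008 to 56068 CPM in the border zone. In the border zone, 2 libraries stood apart from the rest. That of animal 1022 had the lowest cardiomyocyte sum (9008 CPM, next 32656) and the highest fibroblast and matrix sum (59165 CPM, next 11125), and that of animal 3622 listed 28024 genes with at least 1 count, against 17563 to 20148 in the other border zone libraries. Calls without either library are therefore given as well, and fold changes without the library of animal 1022 where they moved by more than 1.5 times.

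To find which members differed between the zones, edgeR was fitted to all 12 libraries, and the p-values of its quasi-likelihood test were adjusted over the 13844 genes by the Benjamini-Hochberg method. ADAM12, ADAM19, ADAMTS2 and ADAMTS4 were higher in the border zone (adjusted p under 0.05), that is 4 of the 10 members, 2 membrane-bound and 2 secreted, whereas 2.06% of all genes tested passed in this direction and 2.07% in either. All 10 estimates were above 0, and the median log2 fold change was 1.37 over the 10 members and 0.04 over all genes tested. When the animal was added as a replicate block, 1 member passed, ADAM19, beside 0.289% of all genes in this direction and 0.296% in either. At an unadjusted p under 0.05, 6 members were higher, as were 17% of all genes. DESeq2 called 4 members (ADAM19, ADAMTS2, ADAMTS4 and ADAMTS12) beside 8.48% of all genes to which it gave an adjusted p, and gave none for ADAM8 and ADAM12. Without the border zone library of animal 1022, ADAM12, ADAM19, ADAMTS2 and ADAMTS4 passed again, beside 2.15% of all genes. These 4 also passed with the block once both libraries of animal 1022 were left out, beside 4.11% of all genes. Without the border zone library of animal 3622 alone, ADAM12 and ADAMTS2 passed, beside 1.12% of all genes. When each animal was left out in turn, 4 members passed when it was animal 1322, beside 3.64% of all genes, and 2, ADAM12 and ADAMTS2, when it was animal 1022, beside 1.14%. For animals 1323, 1623, 1922 and 3622 the count was 0, but there 0.0218%, 0%, 0.0999% and 0% of all genes passed, so these counts say nothing about the members, of which 6 to 7 had an unadjusted p under 0.05 by edgeR, beside 17.7% to 22.2% of all genes. In bulk tissue, more cells of a type and more RNA per cell cannot be told apart.

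**Figure D1:**
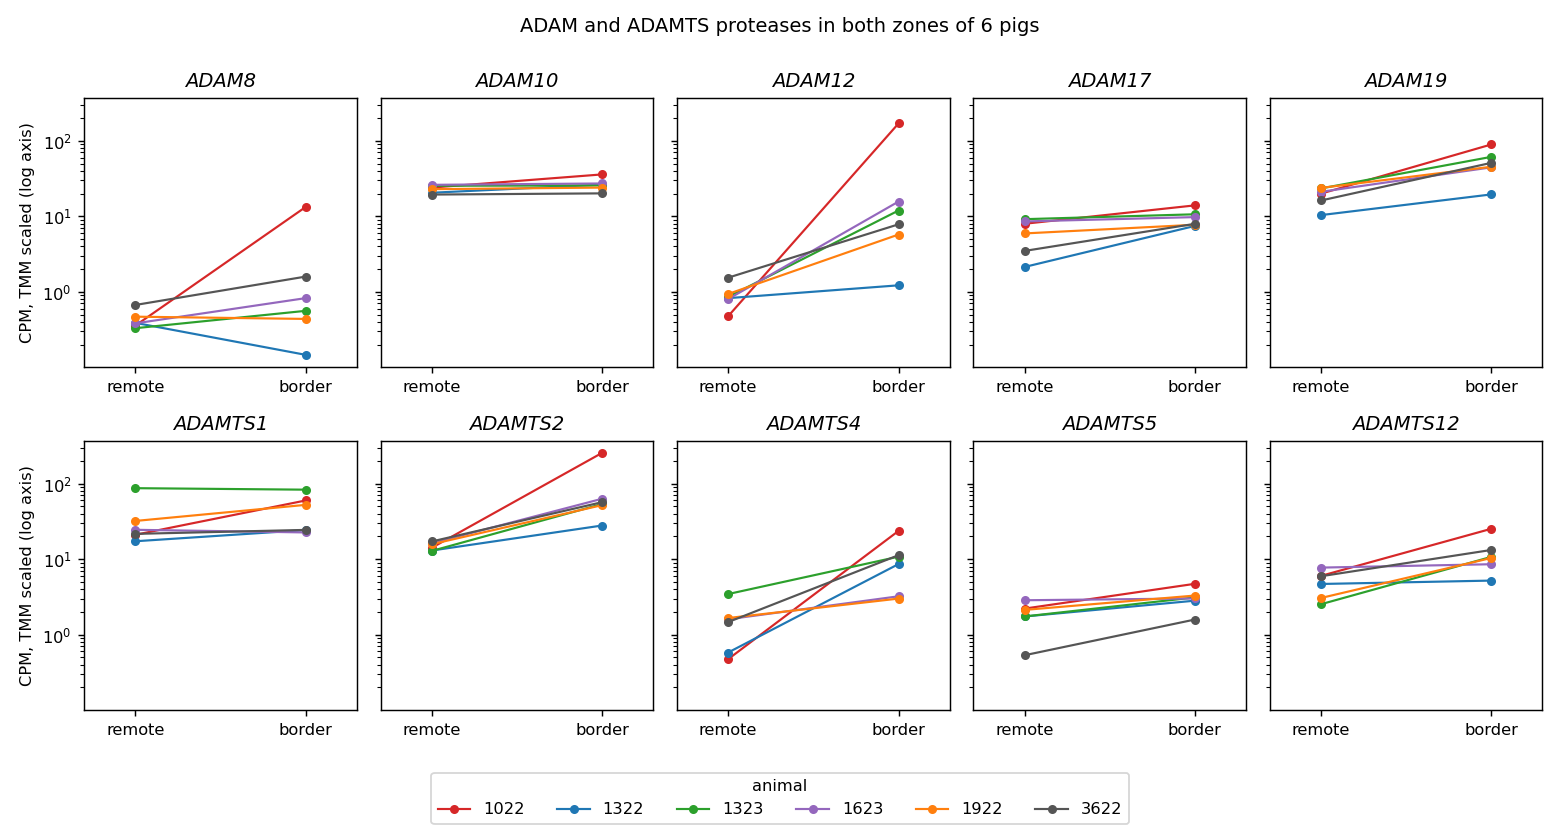
CPM (log axis) of each member in the remote and border zone, with 1 line per animal (6 animals). The lines of ADAM12 and ADAMTS2 are steeper in animal 1022 than in any other animal, reaching 169.5 and 256 CPM, while the lines of ADAM10 stay between 19.4 and 35.9 CPM.

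ADAM12 (meltrin alpha), a membrane protease of developing and activated mesenchymal cells, had the largest fold change of the 10. Its level was 1.22 CPM at the lowest, 9.87 at the median and 169.5 at the highest in the border zone, and 0.475, 0.840 and 1.54 CPM in the remote zone. The top border zone library was that of animal 1022, followed by 15.7 CPM in animal 1623 and 11.9 in animal 1323, and only the border zone library of animal 1322 fell within the range of the remote zone. The log2 fold change was 5.31 ± 1.06 (SE, n = 6 libraries per zone, adjusted p = 0.0293 by edgeR), and with the block it was 3.61 ± 0.88 (adjusted p = 0.0798). Of the border zone sum, 80.0% came from animal 1022, and without that library the log2 fold change was 3.24 (adjusted p = 0.00477). Counts in the remote zone were low, between 12 and 26 per library. In the RefSeq models 5623 of the 11880 exon bases of ADAM12 overlap exons of FANK1 on the opposite strand, and the libraries keep no strand. FANK1 itself was at 0.206 to 0.954 CPM over the 12 libraries, with a log2 fold change of -0.15 (adjusted p = 0.857 by edgeR).

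ADAM19 (meltrin beta), a membrane protease that sheds neuregulins, was the one member that passed with and without the block. It was at 19.5, 48.2 and 89.4 CPM (lowest, median, highest) in the border zone and at 10.4, 20.5 and 23.8 CPM in the remote zone. In 5 of 6 animals the border zone library was above every remote zone library, the exception being animal 1322, whose remote zone library was also the lowest. Within animals the difference was smallest in animal 1322 (0.90 on the log2 CPM scale) and largest in animal 1022. The log2 fold change was 1.44 ± 0.30 (SE, adjusted p = 0.0338 by edgeR), 1.35 ± 0.18 with the block (adjusted p = 0.0429), and 1.21 without the border zone library of animal 1022 (adjusted p = 0.0346). Without both libraries of animal 1022 the adjusted p was 0.0739, so the call was lost. Without the border zone library of animal 3622 the adjusted p was 0.0534.

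ADAMTS2, the main enzyme that removes the amino-terminal propeptide of procollagens I and III, was the one member whose zones did not overlap, as for 1.99% of all genes tested. The border zone levels were 28.0, 55.4 and 256 CPM and the remote zone levels 12.9, 15 and 17.2 CPM (lowest, median, highest). The remote zone libraries were close together, and in the border zone 4 animals lay between 52.0 and 63.2 CPM, with animal 1322 below and animal 1022 above them. Its log2 fold change was 2.52 ± 0.45 (SE, adjusted p = 0.0253 by edgeR). It was 2.09 ± 0.36 with the block (adjusted p = 0.0564) and 1.77 without the border zone library of animal 1022 (adjusted p = 0.000997).

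ADAMTS4, an aggrecanase that also cuts versican, rose with another order of the animals. Its border zone levels were 3.01, 9.71 and 23.7 CPM and its remote zone levels 0.475, 1.54 and 3.46 CPM (lowest, median, highest). Animal 1322, which had the smallest within-animal difference for 5 of the 10 members, had the second largest for ADAMTS4, with 8.62 CPM in the border zone and 0.581 in the remote zone, a difference of 3.71 on the log2 scale. The smallest differences were those of animals 1922 (0.82) and 1623 (0.97). The border zone libraries of both these animals were below the highest remote zone library, that of animal 1323. The log2 fold change was 2.7 ± 0.57 (SE, adjusted p = 0.0338 by edgeR), 2.52 ± 0.63 with the block (adjusted p = 0.0807) and 2.24 without the border zone library of animal 1022 (adjusted p = 0.0372). Without both libraries of that animal it was 2.05 (adjusted p = 0.0725), and the call was lost. Without the border zone library of animal 3622 the adjusted p was 0.0534.

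**Figure D2:**
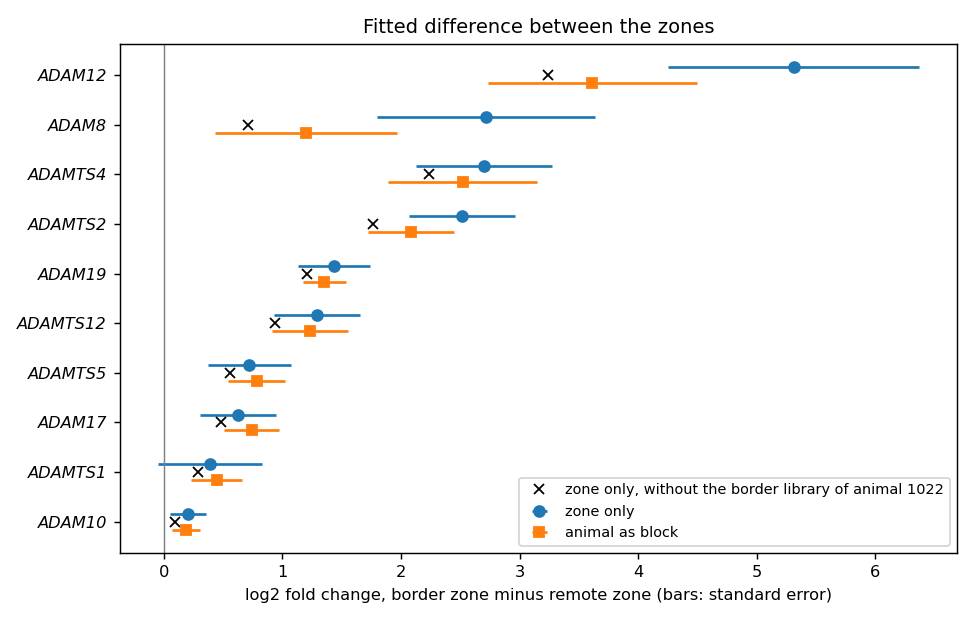
Log2 fold change (border zone minus remote zone, x axis) of the 10 members, with standard errors as bars, from the fit with zone only and from the fit with the animal as a block, and without the border zone library of animal 1022 (crosses, no error shown). All estimates are above 0, and those of ADAM12 and ADAM8 shift most when that library is left out, to 3.24 and 0.71.

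The remaining 6 members did not pass the test. ADAM8, a membrane protease known from myeloid cells and osteoclasts, had the lowest median CPM in both zones, at 0.146, 0.692 and 13.3 CPM in the border zone and 0.329, 0.384 and 0.669 CPM in the remote zone. Its remote zone counts were only 8 to 10 per library. A single library, that of the border zone of animal 1022, held 78.9% of the border zone sum, and 4 of 6 animals had the higher level there. The log2 fold change of 2.72 ± 0.92 (SE, adjusted p = 0.109) became 0.71 without that library (adjusted p = 0.49) and 1.2 ± 0.77 with the block (adjusted p = 0.313).

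ADAMTS12, a secreted protease that cuts cartilage oligomeric matrix protein, was at 5.21, 10.6 and 25.3 CPM in the border zone and 2.54, 5.32 and 7.74 CPM in the remote zone. Every animal had more in its border zone, but by only 0.15 on the log2 scale in animals 1322 and 1623, against 1.15 to 2.06 in the other 4. The log2 fold change was 1.29 ± 0.36 (SE, adjusted p = 0.0702, and 0.0814 with the block).

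ADAM10 and ADAM17 are the broadly expressed sheddases, the former known for Notch and cadherins and the latter for tumour necrosis factor. ADAM10 differed least between the zones of all members, at 20.1 to 35.9 CPM in the border zone and 19.4 to 26.1 CPM in the remote zone. Its log2 fold change was 0.20 ± 0.15 (SE, adjusted p = 0.423), and in 4 of 6 animals the difference was 0.07 or less on the log2 scale. ADAM17 was at 7.45, 8.85 and 13.9 CPM in the border zone and 2.13, 6.94 and 9.15 CPM in the remote zone (lowest, median, highest). Its largest difference, 1.77, was in animal 1322, from the lowest remote zone level, and the log2 fold change was 0.62 ± 0.32 (SE, adjusted p = 0.24, and 0.0999 with the block).

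ADAMTS1 and ADAMTS5 both cut aggrecan and versican. ADAMTS1 was highest in animal 1323 in both zones, with 83.4 CPM in the border zone and 87.3 CPM in the remote zone of animal 1323, and at most 60.0 CPM in any library of another animal. The lowest and median levels were 22.6 and 38.5 CPM in the border zone and 17.3 and 23.1 CPM in the remote zone. In 4 of 6 animals the border zone had more, and the log2 fold change was 0.39 ± 0.44 (SE, adjusted p = 0.616). Its neighbour ADAMTS5 was at 1.59 to 4.73 CPM in the border zone and 0.535 to 2.86 CPM in the remote zone, both lows being in animal 3622. All 6 animals had more in the border zone, with a log2 fold change of 0.72 ± 0.35 (SE, adjusted p = 0.22, and 0.0959 with the block). Over the 12 libraries the log2 CPM of this pair had a Pearson r of 0.38, given as a description only.

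Seen by animal, 56 of the 60 within-animal differences were above 0, and 8 of the 10 members were higher in the border zone of every animal, as were 11.7% of all genes tested. The 4 differences below 0 were those of ADAM8 in animals 1322 and 1922 and of ADAMTS1 in animals 1323 and 1623. The border zone library of animal 1022 was the highest for 9 of 10 members, all but ADAMTS1, and that of animal 1322 the lowest for 6. The median difference over the members was 2.11 in animal 1022, 1.3 in animal 3622, 1.10 in animal 1323, 0.77 in animal 1922, 0.60 in animal 1322 and 0.58 in animal 1623 on the log2 CPM scale. In the border zone, the sums of 7 of 8 marker lists were highest in animal 1022, and that of cardiomyocyte genes was lowest there. The fibroblast and matrix list, 9 of 10 genes with an identifier, summed to 2882 CPM in animal 1322 and 59165 CPM in animal 1022, and to 1003 to 2549 CPM in the remote zone. The macrophage list, 9 of 9 genes, summed to 131.3 CPM in animal 1322 and 1543 CPM in animal 1022, with 121 to 260.2 CPM in the remote zone. The smooth muscle and pericyte list summed to 496 to 2965 CPM in border zone tissue and to 239 to 576 CPM in remote tissue. The endothelial list summed to 355 to 530 CPM and 250.5 to 581 CPM. Neutrophil genes summed to at most 8.72 CPM and lymphocyte genes to at most 24.5 CPM in any library. The list of cartilage-type matrix genes summed to 2.29 to 495 CPM in the border zone and 1.19 to 3.49 CPM in the remote zone. No gene of these lists was at 0 in all libraries, and their part in the differences of the proteases was not tested.

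**Figure D3:**
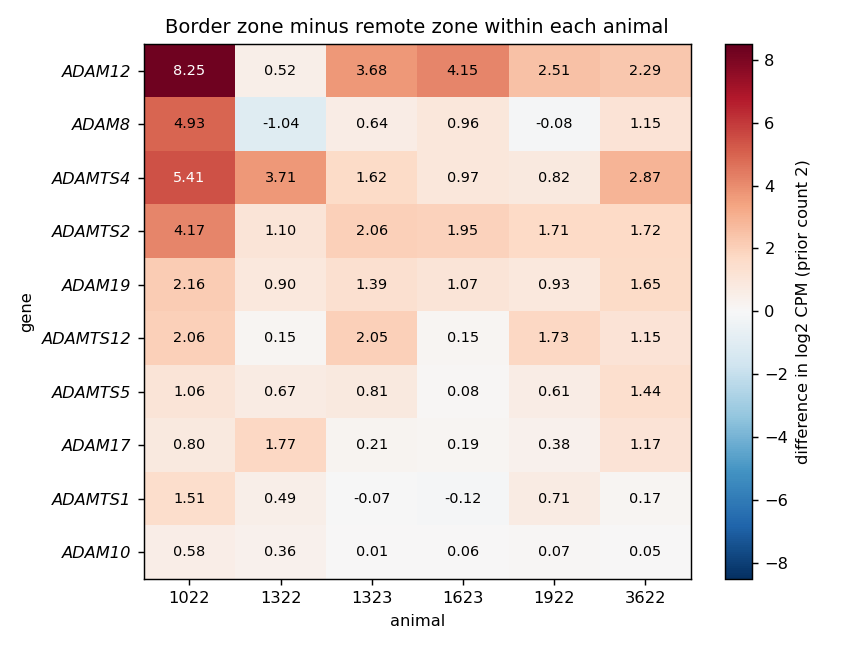
Difference in log2 CPM (prior count 2) between the border and remote zone library of each animal, with members as rows in the order of their fold change and animals as columns. Animal 1022 holds the largest value for 8 members, up to 8.25 for ADAM12, and animal 1322 is low for ADAM12 (0.52) but high for ADAMTS4 (3.71).

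Levels were compared between genes as CPM per kilobase of RefSeq exon, since longer transcripts collect more reads. The RefSeq model of ADAM10 (2247 bp) has 0 exon bases beyond the coding sequence, against 1167 to 8907 in the other 9 genes, so its level per kilobase is not on the same footing and it was left out of the order and the sums. In the border zone the order of the medians was ADAMTS1 (9.60 CPM per kilobase), ADAMTS2 (7.91), ADAM19 (6.94), ADAMTS4 (2.54), ADAM17 (1.90), ADAMTS12 (1.16), ADAM12 (0.831), ADAMTS5 (0.302) and ADAM8 (0.149). The ranges of all 8 neighbouring pairs in this order overlapped. By median CPM without length, ADAMTS2 came first in the border zone, and 2 of these 9 genes kept their place. In the remote zone the order was ADAMTS1 (5.76), ADAM19 (2.96), ADAMTS2 (2.14), ADAM17 (1.49), ADAMTS12 (0.585), ADAMTS4 (0.401), ADAMTS5 (0.191), ADAM8 (0.0829) and ADAM12 (0.0707). There the ranges overlapped for 7 of 8 pairs, and those of ADAMTS1 and ADAM19 did not. The step of ADAM12 from the last place to the seventh and of ADAMTS4 from the sixth to the fourth were the upward moves of more than 1 place. The level of ADAM12 was divided by all 11880 exon bases, of which 5623 overlap exons of FANK1. Whether reads on the shared bases were counted is not known. If they were not, ADAM12 is set too low in both orders and in the sums, and its places could differ. Lengths came from RefSeq models, whereas the counts rest on an Ensembl annotation, so all levels per kilobase are approximate. Summed over the other 4 ADAM genes, the level was 4.54 to 33.0 CPM per kilobase in the border zone, against 2.11 to 5.48 in the remote zone. The 5 ADAMTS genes summed to 13.2 to 61.0 and 7.02 to 25 CPM per kilobase, and each animal had the higher value of both sums in its border zone.

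The relatives of the members were counted in the same fit. Of 38 other ADAM, ADAMTS and ADAMTS-like genes, 26 were tested and 3 were higher in the border zone, beside 2.06% of all genes tested. The 3 were ADAMTS17, ADAMTS8 and ADAMTSL2. None of the 26 passed with the block, where 11 had an unadjusted p under 0.05 by edgeR, as did 29.4% of all genes. The median log2 fold change was 0.70. ADAMTS17 was at 1.80 to 46.3 CPM next to the infarct and 0.291 to 1.81 CPM away from it, with a log2 fold change of 3.66 ± 0.81 (SE, adjusted p = 0.0364, and 0.0798 with the block). Of its border zone sum 66.4% came from animal 1022, and without that library the log2 fold change was 2.33 (adjusted p = 0.0344). ADAMTS8, known like ADAMTS1 as an inhibitor of vessel growth, was at 2.28 to 10.9 CPM and 0.416 to 2.60 CPM, with a log2 fold change of 2.29 ± 0.49 (SE, adjusted p = 0.0338, and 0.0564 with the block). ADAMTSL2, which lacks the protease domain and binds microfibrils, did not overlap between the zones (13.6 to 48.2 against 5.74 to 11.4 CPM, log2 fold change 1.49 ± 0.33, adjusted p = 0.0356, and 0.0814 with the block). Without the border zone library of animal 3622, the adjusted p was 0.0534 for ADAMTS17 and 0.0583 for both ADAMTS8 and ADAMTSL2, so 0 of the 3 passed (10 relatives and 22% of all genes at an unadjusted p under 0.05 by edgeR). The log2 fold changes in that fit were 3.76, 2.21 and 1.49, close to those from all libraries. Without both libraries of animal 1022 it was 0.0739 for ADAMTS17, 0.100 for ADAMTS8 and 0.0725 for ADAMTSL2, so again 0 of the 3 passed (8 relatives and 17.1% of all genes at an unadjusted p under 0.05 by edgeR). The most abundant relative of each subgroup did not pass: ADAMTS7 had a log2 fold change of -0.10 ± 0.19, ADAMTSL5 of -0.21 ± 0.19 and ADAM15 of 0.34 ± 0.22 (SE), with adjusted p of 0.779, 0.516 and 0.343, and the first 2 were at 0.15 and 0.0399 when scaled by library totals.

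Among the 18 tested genes that restrain, escort or activate these proteases, 2 were higher in the border zone, both inhibitors, beside 2.06% of all genes tested. None of the 18 passed with the block, where 8 had an unadjusted p under 0.05 by edgeR (29.4% of all genes). TIMP1, a broad inhibitor of matrix metalloproteinases that also acts on ADAM10, was at 15.8 to 125 CPM in the border zone and 4.83 to 12.7 CPM in the remote zone, with a log2 fold change of 2.22 ± 0.48 (SE, adjusted p = 0.0338, and 0.0773 with the block). RECK, a membrane-anchored inhibitor, was at 4.53 to 17.0 CPM and 2.74 to 4.24 CPM (log2 fold change 1.3 ± 0.29, adjusted p = 0.0382, and 0.0703 with the block). The log2 fold change of TIMP1 was 1.52 without the border zone library of animal 1022 (adjusted p = 0.0204). Without both libraries of animal 1022 it was 1.45 (adjusted p = 0.0569), so the call was lost. With the block and without animal 1022, TIMP1 and RECK were among 4 genes of the list that passed, beside 4.11% of all genes. Without the border zone library of animal 3622 the adjusted p in the fit with zone only was 0.0583 for TIMP1 and 0.0588 for RECK. TIMP3, the inhibitor best known for acting on ADAM17 and the aggrecanases, was the most abundant of the group at 236 to 752 CPM and 233 to 321 CPM, and its log2 fold change was 0.46 ± 0.27 (SE, adjusted p = 0.296). RHBDF1, an iRhom that carries ADAM17 to the cell surface, had 0.79 ± 0.20 (adjusted p = 0.0571). TSPAN17, a tetraspanin partner of ADAM10, had -0.10 ± 0.18 (adjusted p = 0.765, and 0.19 on the log2 scale with library totals), and FURIN, a convertase that removes the propeptide of many of these proteases, 0.02 ± 0.21 (adjusted p = 0.968, and -0.0246 on the log2 scale with DESeq2).

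Of the substrates, 26 of 40 were tested and 8 were higher in the border zone, beside 2.06% of all genes tested. None of the 26 passed with the block, where 18 had an unadjusted p under 0.05 by edgeR (29.4% of all genes). The 8 were all among the 11 tested matrix substrates of ADAMTS proteases. Among them were collagens whose precursors ADAMTS2 processes, with COL1A1 at 878 to 30498 CPM in the border zone and 235 to 681 CPM in the remote zone (log2 fold change 4.05 ± 0.81, adjusted p = 0.0295, and 0.0821 with the block). COL1A2 had a log2 fold change of 3.27 ± 0.68 (adjusted p = 0.0328, and 0.0844 with the block). FN1 (fibronectin) rose by 5.09 ± 1.02 on the log2 scale (SE, adjusted p = 0.0294, blocked 0.0748) and BGN (biglycan) by 3.55 ± 0.72 (adjusted p = 0.0316, blocked 0.0814). VCAN (versican), which several ADAMTS members cut, was at 24.3 to 508 CPM next to the infarct and 13.4 to 19.1 CPM away from it, a log2 fold change of 3.0 ± 0.65 (SE, adjusted p = 0.0341, blocked 0.0803). The border zone library of animal 1022 held 63.2% to 83.4% of the border zone sum of these 5 genes. Without it the log2 fold change was 2.49 for COL1A1, 2.09 for COL1A2, 2.76 for FN1, 2.24 for BGN and 1.67 for VCAN, and all 5 passed without it and without the border zone library of animal 3622. None of the 14 tested membrane substrates of ADAM proteases passed, with a median log2 fold change of 0.80, 9 at an unadjusted p under 0.05 by edgeR (24.7% of all genes), and 5 called by DESeq2 (10.3% of all genes). CDH2 (N-cadherin), the most abundant of them, had -0.26 ± 0.28 (adjusted p = 0.597), and IGFBP5, which ADAM12 can cut, had 0.34 ± 0.27 (adjusted p = 0.449).

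**Figure D4:**
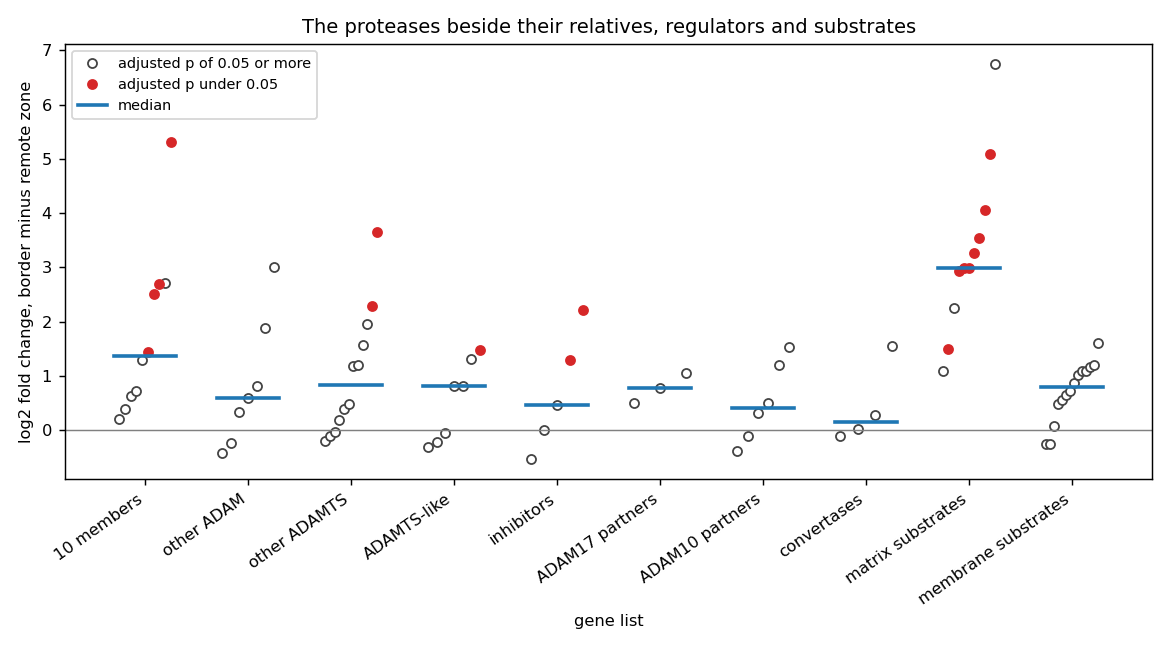
Log2 fold change (border zone minus remote zone, y axis) of every tested gene of each list, as points, filled where the adjusted p is under 0.05, with the list's median as a line. The median is 1.37 for the 10 members and 3.0 for the matrix substrates, and the filled points lie among the members, the other ADAMTS and ADAMTS-like genes, the inhibitors and the matrix substrates.

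The genes whose pattern over the 12 libraries was most like that of each member were taken as the 3 with the highest Pearson r of log2 CPM among 11716 other tested genes with a symbol. The libraries share zones and animals, so these values describe and do not test. They also depend on the measure: by Spearman's rho, 5 of the 10 members shared at least 1 of their 3 genes, and ADAM8, ADAM12, ADAMTS1, ADAMTS2 and ADAMTS12 shared 0. For ADAM12 they were IKBIP (r = 0.99), B4GALT1 (0.99) and LOX (0.98), and for ADAMTS2 they were FSTL1 (0.99), PRELP (0.98) and ANGPT4 (0.98). By Spearman's rho they were DCTD, C5AR2 and FJX1 for ADAM12 and LOXL1, ARSI and THBS3 for ADAMTS2. ADAM12 and ADAMTS2 themselves had r = 0.98, the highest of the 45 pairs of members. Both stood far highest in the border zone of animal 1022, at 7.41 (next 3.98) and 8.0 (next 5.98) on the log2 CPM scale. That library therefore weighs heavily in the Pearson r of both genes, and its part was not tested. ADAM19 was most like CERS6 (0.96), PTPN9 (0.95) and BAALC (0.95), and ADAMTS4 most like STAC2 (0.93), DLGAP4 (0.92) and LRRC10B (0.92). For ADAM8, whose border zone sum came mostly from animal 1022, the closest were TCIRG1, HES6 and INPP5D (0.97 each), and by Spearman's rho PLCE1, LPCAT1 and SEC16B. ADAM10 was closest to RNF217 (0.97), LHFPL2 (0.96) and TET3 (0.94), and ADAM17 to ZMAT3 (0.98), FCHO2 (0.96) and TMX1 (0.96). ADAMTS5 was closest to NANP, F2R (0.96 each) and REV3L (0.95), and ADAMTS12 to EVC2 (0.96), B4GALT4 (0.95) and GPR173 (0.94). ADAMTS1 had SLC12A2 (0.94), its relative ADAMTS9 (0.93) and BTG2 (0.93).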

How the data were processed

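The deposited values are raw counts per gene. The authors made them from poly(A)-enriched, nondirectional, paired-end libraries, checked the reads with FastQC 0.12.1 and MultiQC 1.17, aligned them to Sscrofa11.1 with STAR 2.7.10a and counted them with featureCounts 2.16.1 (annotation: Ensembl release 113). The options for reads on several genes or places are not given in the sources used here. Zone and animal were taken from the sample titles. The extraction text in the labels names border zone tissue for every sample, also those titled remote, so the remote zone rests on the titles and the study's methods.

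Software was R 4.3.3 (edgeR 4.0.16, limma 3.58.1, DESeq2 1.42.0) and Python 3.11.15. Genes were kept by filterByExpr, normalised by TMM and tested with edgeR (robust quasi-likelihood), zone being the sole factor. Dividing a log2 fold change by the root of its F gave the standard error. Log2 CPM used a prior count of 2. Symbols were paired with 15623 of 35682 identifiers. ADAM29, ADAMTSL6, TIMP2, CX3CL1, CXCL16, LRP1 and IGFBP3 had none by that table. Positions, exon lengths and sequences came from RefSeq on the same build.

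The members, lists and tests were chosen with earlier results of these data known. Named were the members and, per list, up to 5 genes of largest change with an adjusted p under 0.05 and the most abundant gene of each subgroup. Libraries with the same number come from 1 animal and are thus paired. The r of their deviations from the zone means, taken over genes, averaged 0.35 and lay between -0.03 (animal 1022) and 0.57 (animal 1323). Each library is 1 piece of tissue, and PCR copies were not told apart from molecules.

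Tested on simulated counts of both zones (13677 genes), edgeR with zone only recovered 85% of 100 genes changed 4-fold and 33% of 100 changed 2-fold, and called 3 unchanged genes. The simulated libraries were drawn separately, with no animal effect and no library set apart, so these rates need not hold for the data. Alternatives were the block, DESeq2, other scalings and filters, and left-out libraries or animals. The block with each animal left out was added after the data were seen.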

Additional observations from a re-analysis of the deposited data

Results flagged for a closer look

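Of the 20 sets of 6 libraries (10 members, each in 2 zones), 2 held a library far from the other 5 for the spread of its set. The gap to the next library was 0.63 of the range for ADAMTS2 and 0.69 for ADAMTS5. Such sets can also arise by chance, and how often was not worked out. ADAMTS2 was at 8.0 on the log2 CPM scale in the border zone of animal 1022, with the next library at 5.98. ADAMTS5 was at -0.69 in the remote zone of animal 3622, from 8 counts, with the next library at 0.87.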

How the results depend on the processing

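Counts of called genes depended on the fit, in the order members, relatives, regulators and substrates (4, 3, 2 and 8 by zone alone). With the animal as a replicate block they were 1, 0, 0 and 0 (7, 11, 8 and 18 at an unadjusted p under 0.05 by edgeR, beside 29.4% of all genes). DESeq2 gave 4, 7, 4 and 14, and library totals without TMM 6, 8, 5 and 17. Without a filter the counts were 2, 2, 0 and 2, and with at least 10 counts in every library 4, 1, 2 and 8. The share of all genes called moved too, from 2.07% by zone alone to 0.296%, 10.3%, 11.2%, 0.462% and 1.23% in these 5 settings. Leaving out each animal gave 0 to 4, 0 to 6, 0 to 4 and 0 to 8, and all 4 counts were 0 without animal 1323, 1623, 1922 or 3622, where at most 15 genes of all passed. Without the border zone library of animal 3622 alone they were 2, 0, 0 and 8. The block with an animal left out gave 4, 6, 4 and 11 without animal 1022, 1, 1, 1 and 0 without animal 1322, and 0, 0, 0 and 0 without any of the others. All genes called in these fits were 6.19% without animal 1022, 0.365% without animal 1322 and at most 0.0725% without another, so the zeros say nothing about the lists. Over the 13844 genes of the zone fit the median log2 fold change was 0.04, and 0.32 with library totals. Of 206 alternative values for single members 0 turned direction, and 44 lost the call. Only the 4 members called by zone alone had a call to lose, so all 44 were among their values and not spread over the 206. Other named genes turned in 13 of 396 values. With library totals ADAMTS7 was at 0.15, ADAMTSL5 at 0.0399 and TSPAN17 at 0.19. FURIN (0.02) was at -0.0246 with DESeq2, -0.0125 with its size factors, -0.0271 without a filter, and -0.0506, -0.0161 and -0.0773 without animal 1022, animal 1323 and the border zone library of animal 1022. With the block, FURIN was at -0.0584, -0.0196, -0.0458 and -0.00447 without animals 1022, 1322, 1323 and 1922. Its values without 1 library or animal reached 0.123 (border zone library of animal 3622). The cause of these changes was not tested. Low counts limit ADAM8 (3 at the lowest) and, in the remote zone, ADAMTS5 (8), ADAM12 and ADAMTS4 (12 each).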
